A study of Mus musculus with 20 samples.

Results

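Immediate-early genes are switched on by extracellular signals without new protein synthesis. The 10 genes described here were chosen by name, with earlier results of these data known: Fos, Fosb, Jun, Junb, Egr1, Klf2, Klf4, Klf6, Zfp36 and Ier2. All 10 were on the array, with 14 probe sets that name a single gene, out of 12393 such genes and 22690 probe sets in all. A log2 value above 4 in at least 5 of the 20 arrays was required for testing, and 9 of the 10 genes met it. Fosb did not, so the counts below are over 9 genes. Junb met it through the E18.5 arrays alone, with 0 of 10 arrays above 4 at E16.5, so its change between the stages was in part required by the filter. The group is not made up of DNA-binding factors only, because Zfp36 encodes tristetraprolin, an RNA-binding protein that speeds the decay of messenger RNAs.

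Each Affymetrix array held RNA of 1 C57Bl6 embryo, taken from the left lobe of the lung. At E18.5, shortly before birth, there were 5 mutants labelled GRCol1-Cre and 5 controls labelled GR flox, and at E16.5 there were again 5 mutants and 5 controls. GR is the glucocorticoid receptor. The mutants lack it in mesenchymal cells through a Cre that is expressed from a bacterial artificial chromosome carrying the locus of the collagen (I)-alpha-2 gene, and they are called GR ablation lungs here. Epithelial and endothelial cells of these lungs are outside the reach of that Cre by design. In a whole lobe, fewer cells of a type and less RNA per cell cannot be told apart. The labels' protocol does not give the time between collection of the embryos and freezing.

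In most cells these genes are induced through MAP kinases, which activate serum response factor with its partners and the cAMP-response factor CREB. FOS and JUN proteins then pair to form the AP-1 transcription factor, and EGR1 and the Kruppel-like factors bind GC-rich promoter sites. KLF2 in endothelium follows blood flow through the kinase ERK5 and MEF2 factors, and in mice Klf2 is required for the late steps of lung maturation. In many cell types glucocorticoids raise Zfp36, and the glucocorticoid receptor can also restrain AP-1 activity.

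Across the arrays the median log2 value was between 5.70 and 5.87. Nr3c1, the receptor gene itself, was 7.80 ± 0.19 in GR ablation lungs and 9.42 ± 0.22 in controls at E18.5 (SD, n = 5 each), and 7.07 ± 0.45 in GR ablation lungs and 8.78 ± 0.22 in controls at E16.5. The Nr3c1 differences were -1.62 and -1.72 (limma adjusted p = 1.62e-06 and 1.66e-05). The files do not say whether its probe set covers the exons removed by Cre. The labelled tissue was checked with markers. Mesenchymal markers averaged 11.3 to 12.4 over the arrays with 0 of 10 dim throughout, and epithelial markers 8.39 to 11.6 with 1 of 14 dim throughout, Nkx2-1. The place of each array between the stages was computed from all tested genes but these 9, as 1 at the E18.5 control mean and 0 at the E16.5 control mean. It was 0.453 to 0.769 in E18.5 GR ablation lungs and 1.02 to 1.09 in E18.5 controls other than replicate 3, which stood at 0.704. At E16.5 it was -0.126 to 0.0878 in GR ablation lungs and -0.0895 to 0.210 in controls, the highest being control replicate 5. By Xist and Y-linked genes, female embryos were 2 of 5 among E18.5 GR ablation lungs, 3 of 5 among E18.5 controls, 5 of 5 among E16.5 GR ablation lungs and 1 of 5 among E16.5 controls.

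The promoters of Fos, Jun, Klf2, Klf4, Klf6 and Zfp36 are shown because these are the 6 genes that were lower in GR ablation lungs at E18.5. RefSeq (build GRCm38.p6) gave a promoter for 8 of the 10 genes, all but Egr1 and Ier2, from 250 bases before to 50 bases after the gene start. Capitals mark TGACG, the core of the cAMP response element, a TATA box (TATAAA) and an SRF CArG box, on either strand.
Fos (chr12:85473640-85473939, plus strand): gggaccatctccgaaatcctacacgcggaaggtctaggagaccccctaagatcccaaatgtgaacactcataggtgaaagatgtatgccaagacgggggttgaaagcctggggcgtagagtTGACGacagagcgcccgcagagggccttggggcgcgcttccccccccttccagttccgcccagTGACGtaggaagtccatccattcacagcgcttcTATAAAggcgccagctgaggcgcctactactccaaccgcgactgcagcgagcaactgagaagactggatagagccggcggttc
Klf2 (chr8:72318812-72319111, plus strand): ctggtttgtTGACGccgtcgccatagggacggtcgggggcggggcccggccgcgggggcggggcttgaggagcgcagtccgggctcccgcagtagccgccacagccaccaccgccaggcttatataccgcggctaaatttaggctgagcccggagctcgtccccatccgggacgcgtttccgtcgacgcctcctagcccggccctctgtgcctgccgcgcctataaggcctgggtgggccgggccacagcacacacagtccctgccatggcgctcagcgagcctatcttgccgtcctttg
Klf4 (chr4:55532426-55532725, minus strand): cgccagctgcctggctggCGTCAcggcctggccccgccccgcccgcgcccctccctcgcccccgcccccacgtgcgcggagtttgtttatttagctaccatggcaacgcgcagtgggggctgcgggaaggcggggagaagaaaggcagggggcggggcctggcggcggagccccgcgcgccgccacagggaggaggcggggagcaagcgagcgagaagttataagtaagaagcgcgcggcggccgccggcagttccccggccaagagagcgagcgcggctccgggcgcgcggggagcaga
Klf6 (chr13:5861239-5861538, plus strand): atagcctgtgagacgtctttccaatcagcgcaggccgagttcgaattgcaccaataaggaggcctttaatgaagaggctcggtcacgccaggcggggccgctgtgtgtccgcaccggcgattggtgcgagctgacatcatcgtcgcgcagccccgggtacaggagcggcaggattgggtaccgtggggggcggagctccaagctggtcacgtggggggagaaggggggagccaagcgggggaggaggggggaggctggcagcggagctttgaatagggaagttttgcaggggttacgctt
Zfp36 (chr7:28379179-28379478, minus strand): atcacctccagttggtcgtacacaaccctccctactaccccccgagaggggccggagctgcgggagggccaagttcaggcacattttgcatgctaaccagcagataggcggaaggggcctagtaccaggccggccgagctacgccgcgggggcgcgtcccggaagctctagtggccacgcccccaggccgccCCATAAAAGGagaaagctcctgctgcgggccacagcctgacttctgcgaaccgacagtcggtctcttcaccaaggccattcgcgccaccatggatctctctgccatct
Jun (chr4:95052173-95052472, minus strand): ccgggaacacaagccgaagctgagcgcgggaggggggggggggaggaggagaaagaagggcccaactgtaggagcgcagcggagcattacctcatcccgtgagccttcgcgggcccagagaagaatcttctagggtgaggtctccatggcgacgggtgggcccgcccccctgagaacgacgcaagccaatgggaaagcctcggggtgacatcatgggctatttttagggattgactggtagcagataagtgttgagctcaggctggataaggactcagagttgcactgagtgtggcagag

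TGACG was present in the promoters of Fos, Klf2 and Klf4 printed above and in those of Fosb and Junb, 5 of the 8 searched, against 20.8% of 32851 mouse promoters of the same length. In Fos it began 66 and 129 bases before the gene start. The CArG box was found in the Zfp36 promoter alone, beginning 58 bases before the start, and 1.63% of all promoters held one. The GC box GGGCGG, which Sp and Kruppel-like factors bind, was found in 7 of the 8, against 35.7% of all promoters, and CACCC in 4 of the 8, against 57.5%. In Fos the GC box began 74 bases before the start, and in Klf4 and Klf2 it occurred 4 and 2 times. TATAAA was in 2 of the 8 (Fos and Junb), against 13.6%. In Fos it began 33 bases before the start, and in Junb at the gene start itself. The whole cAMP element TGACGTCA (1.79% of all promoters), the AP-1 site TGANTCA (7.81%), the receptor site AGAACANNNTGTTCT (0.00913%) and its single arm AGAACA (19.0%) were in 0 of the 8 windows. TGACG is contained in the whole cAMP element and AGAACA in the receptor site. A match describes these letters only, and no match says only that they are not in these windows.

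The comparison at E18.5 asks what loss of the mesenchymal receptor does when fetal glucocorticoids are high. Of the 9 genes, 6 were lower in GR ablation lungs (Fos, Jun, Klf2, Klf4, Klf6 and Zfp36), 1 was higher (Egr1), and Junb and Ier2 did not pass. A gene was called at an adjusted p under 0.05, from limma with Benjamini-Hochberg adjustment over 8068 genes. Over all genes tested 34.5% were called, 15.9% lower and 18.6% higher. The median log2 difference of the 9 genes was -0.89, beside 0.03 for all genes. The plot of values by animal shows the separation at E18.5 and the overlap at E16.5.

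**Figure D1:**
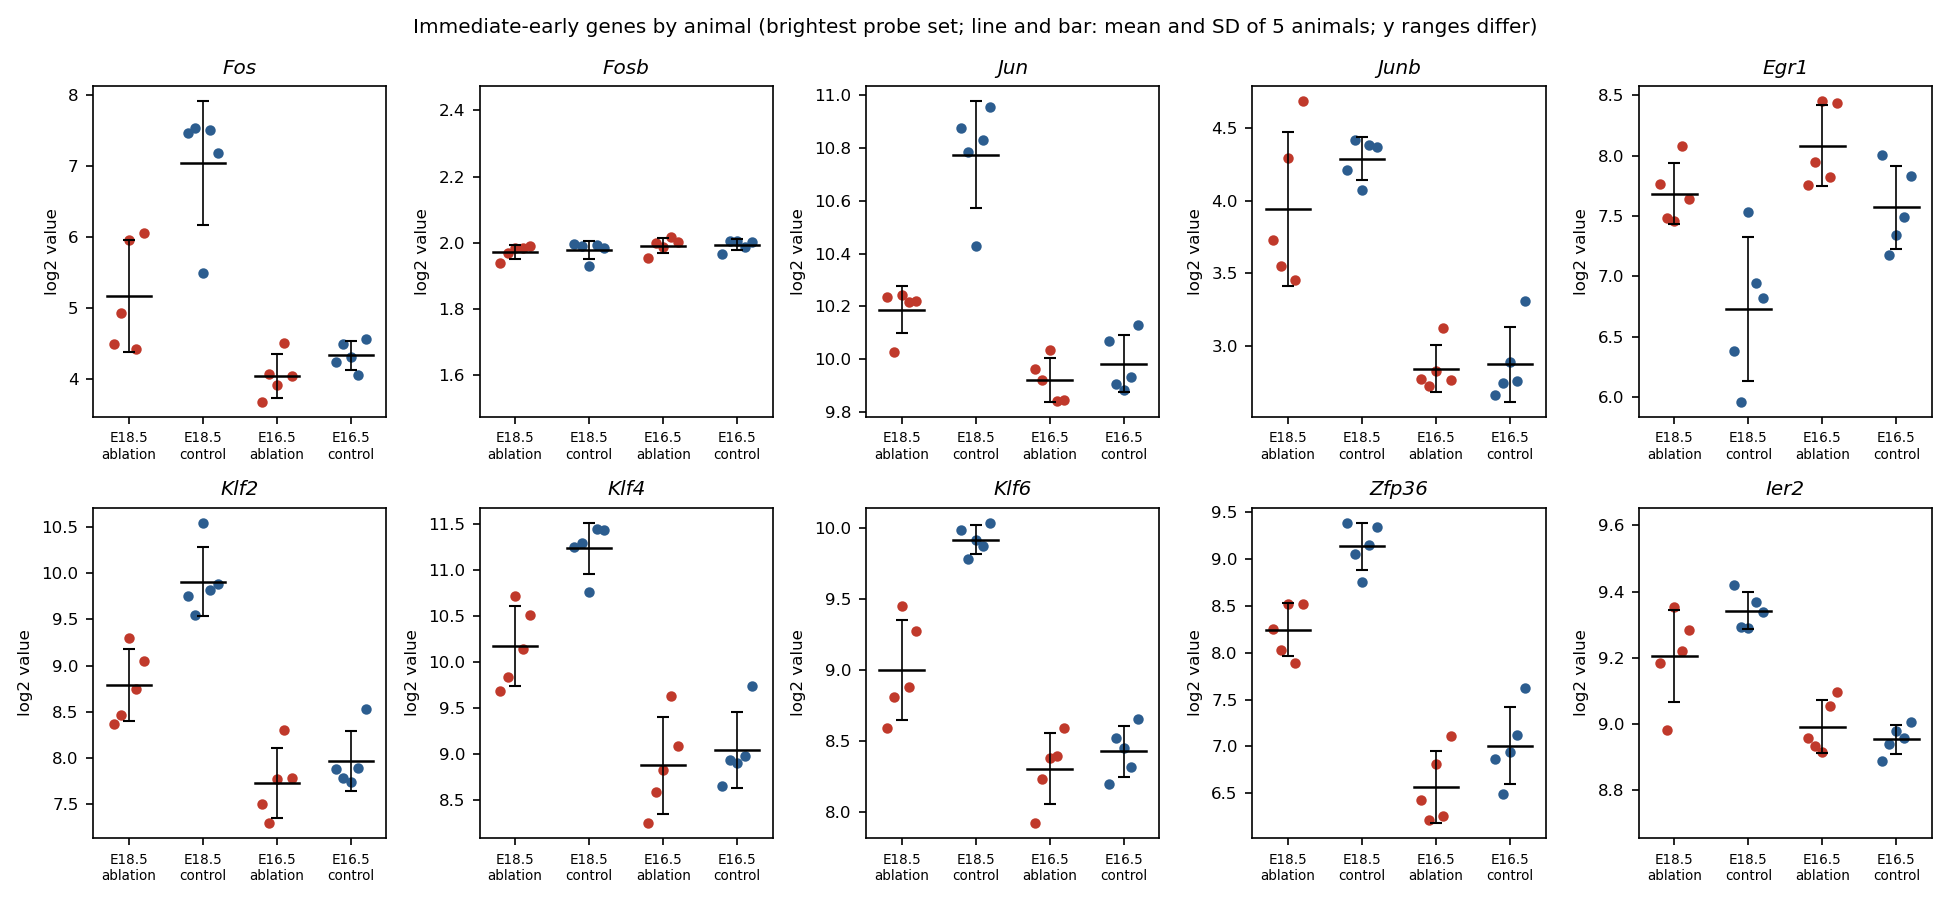
Log2 values of the brightest probe set of each of the 10 genes (y axis, with a range of its own in each panel) in E18.5 GR ablation, E18.5 control, E16.5 GR ablation and E16.5 control lungs (x axis). Points are animals, and lines and bars are the mean and SD of 5 animals. Jun, Klf2, Klf4, Klf6 and Zfp36 do not overlap between the genotypes at E18.5, Egr1 runs the other way, and Fosb stays near 2 throughout.

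Among the AP-1 genes, Fos showed the deepest difference. Its log2 values were 4.50, 4.93, 5.96, 4.43 and 6.06 in E18.5 GR ablation lungs, against 7.46, 7.54, 5.50, 7.51 and 7.19 in E18.5 controls. Control replicate 3 alone fell within the mutant range, and mutant replicates 3 and 5 were the highest mutants. The difference was -1.86 (SE 0.36, limma adjusted p = 0.000740), which left 27.5% of the control level. Without control replicate 3 it was -2.25. At E16.5 Fos was near the dim limit of 4 on every array (3.69 to 4.52 in GR ablation lungs and 4.06 to 4.57 in controls), with overlapping groups.

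Jun, the AP-1 partner that FOS binds, was bright in all groups and moved by less. It read 10.24, 10.03, 10.24, 10.22 and 10.22 in E18.5 GR ablation lungs and 10.87, 10.78, 10.43, 10.83 and 10.95 in E18.5 controls, and every mutant lay below every control. The difference was -0.59 (SE 0.08, limma adjusted p = 5.58e-05), 66.6% of the control level. The other Jun probe set gave -0.49 (SE 0.11, adjusted p = 0.00225 over 12517 probe sets, of which 31.1% were called), with 1 mutant above the lowest control.

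Junb, another AP-1 subunit, was dim in most lungs. It read 3.73, 3.55, 4.29, 3.45 and 4.69 in E18.5 GR ablation lungs and 4.21, 4.42, 4.07, 4.38 and 4.37 in E18.5 controls, so that mutant replicates 3 and 5 reached the controls while the other mutants lay below all of them. The difference of -0.35 (SE 0.19, 95% interval -0.74 to 0.04) did not pass (limma adjusted p = 0.160). Without mutant replicate 5 it was -0.53 and passed (limma adjusted p = 0.0125). Fosb lay between 1.93 and 2.02 on all 20 arrays, below the dim limit, and could not be compared.

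Egr1, a zinc finger factor that growth factor signals induce, was the gene that ran the other way. Its log2 values were 7.77, 7.48, 7.46, 8.08 and 7.64 in E18.5 GR ablation lungs, against 6.38, 5.96, 7.53, 6.95 and 6.82 in E18.5 controls. The mutants were higher but for control replicate 3, which lay among them. The difference was 0.96 (SE 0.24, limma adjusted p = 0.00480), a 1.94-fold higher level, and 1.16 without control replicate 3.

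The 3 Kruppel-like factors were lower in GR ablation lungs by similar amounts. Klf2 read 8.37, 8.47, 9.30, 8.75 and 9.05 in E18.5 GR ablation lungs and 9.76, 9.55, 10.55, 9.81 and 9.89 in E18.5 controls, without overlap. The difference was -1.12 (SE 0.22, limma adjusted p = 0.000768), 45.9% of the control level. Control replicate 3, which was lowest for Fos, was the highest for Klf2, and without it the difference was -0.96.

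Klf4, which restrains proliferation in epithelium and is also expressed in endothelium, read 9.68, 9.84, 10.71, 10.15 and 10.51 in E18.5 GR ablation lungs and 11.25, 11.29, 10.76, 11.44 and 11.44 in E18.5 controls. The groups were separated by a narrow gap between mutant replicate 3 and control replicate 3. The difference was -1.06 (SE 0.25, limma adjusted p = 0.00321), 48.0% of the control level. Its dimmer probe set gave -1.52 (SE 0.26, adjusted p = 0.000258 over the probe sets). There the groups did not overlap, and control replicate 3 lay close to the other controls.

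Klf6, a widely expressed member of the same family, read 8.59, 8.80, 9.45, 8.88 and 9.27 in E18.5 GR ablation lungs and 9.98, 9.78, 9.91, 9.87 and 10.04 in E18.5 controls. All mutants lay below all controls, and control replicate 3 did not stand apart. The difference was -0.92 (SE 0.14, limma adjusted p = 0.000122), 53.0% of the control level. The other 2 Klf6 probe sets gave -0.97 (SE 0.14) and -1.78 (SE 0.23), both without overlap. The last of these was dim in most E16.5 arrays.

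Zfp36 read 8.25, 8.03, 8.52, 7.89 and 8.52 in E18.5 GR ablation lungs and 9.39, 9.05, 8.76, 9.15 and 9.34 in E18.5 controls, again without overlap. The difference was -0.89 (SE 0.20, limma adjusted p = 0.00243), 53.8% of the control level. Ier2, a nuclear early-response protein, ranged from 8.98 to 9.35 in E18.5 GR ablation lungs and from 9.29 to 9.42 in E18.5 controls, overlapping through mutant replicate 3. Its difference of -0.14 (SE 0.06, 95% interval -0.27 to -0.0040) had an unadjusted p of 0.0442 and did not pass after limma's adjustment over all genes (adjusted p = 0.103). Without mutant replicate 3 it was -0.17 and passed (limma adjusted p = 0.0439).

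Groups that did not overlap at E18.5 were found for 5 of the 9 genes, all lower in GR ablation lungs (Jun, Klf2, Klf4, Klf6 and Zfp36). Over all genes 17.4% did not overlap, and 9.13% did so with the mutants lower. For these 5 genes the exact two-sided permutation test over animals gave p = 0.00794, the smallest that 5 against 5 animals allow, and for Fos and Egr1 it gave p = 0.0238 (unadjusted).

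Markers of some other cell types moved with this comparison, in which 15.9% of all genes were lower and 18.6% higher. The mean log2 level of 13 blood endothelial markers was 9.63 to 9.84 in E18.5 GR ablation lungs and 10.005 to 10.245 in E18.5 controls, and 8 of the 13 were lower, 0 higher, with 0 dim throughout. Examples are the adhesion molecule Pecam1 (-0.60, SE 0.09) and the sialomucin Emcn (-0.74, SE 0.10). With that mean as a covariate 0 of the 9 genes passed at E18.5, and 242 of all genes instead of 2784. The mean does not overlap between the genotypes at E18.5, so the marker level and the genotype cannot be told apart in that fit. Mesenchymal markers averaged 11.5 to 11.8 in GR ablation lungs and 11.7 to 12.4 in controls (3 of 10 lower), and 9 of 9 tested mitosis genes were higher. Mesothelial markers were at 7.75 to 8.34 in GR ablation lungs and 8.94 to 9.13 in controls, with 3 of 3 tested lower and Wt1 dim throughout. Lung epithelial markers averaged 10.629 to 11.278 in GR ablation lungs and 11.285 to 11.602 in controls, without overlap, with 4 of 13 tested lower and 1 higher (median -0.46). Erythroid markers averaged 4.97 to 5.51 in GR ablation lungs and 5.537 to 6.998 in controls, also without overlap, with 2 of 4 tested lower and 0 higher (median -1.26), and 2 of 7 dim throughout. With the mean of the 4 tested erythroid markers as a covariate, whose range is not given here, 7 of the 9 genes passed. Myeloid markers overlapped, at 7.54 to 8.46 in GR ablation lungs and 8.05 to 8.30 in controls, with 1 of 13 dim throughout. Of these markers 2 of 11 tested were lower, near the share over all genes. The difference between the probe sets at the ends of Gapdh (3′ minus 5′), a measure of RNA integrity, was -0.201 to -0.118 in GR ablation lungs and -0.207 to -0.0754 in controls, and overlapped. The part of these cell types in the changes of the 9 genes was not tested further.

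The same comparison at E16.5 asks what the loss does earlier in lung development. Of the 9 genes 0 passed by limma, where 0.248% of all genes did, and 2 had an unadjusted p under 0.05, Zfp36 and Egr1. By the exact permutation test 0 of the 9 had p under 0.05, the lowest being 0.0714 for Egr1. Zfp36 read 6.43, 6.22, 6.82, 6.26 and 7.11 in E16.5 GR ablation lungs and 6.87, 6.49, 6.94, 7.13 and 7.62 in E16.5 controls, and the groups overlapped. Its difference was -0.44 (SE 0.20, 95% interval -0.87 to -0.02, limma adjusted p = 1.00). Egr1 read 7.76, 7.95, 8.45, 7.82 and 8.44 in E16.5 GR ablation lungs and 8.01, 7.18, 7.34, 7.49 and 7.84 in E16.5 controls, also overlapping, with a difference of 0.51 (SE 0.24, 95% interval 0.01 to 1.01). The other 7 genes differed by -0.29 (Fos) to 0.04 (Ier2), and their 95% intervals all included 0. The interval of Fos was wide, -1.04 to 0.47. At this stage sex and genotype largely coincide, and 1 control, replicate 5, was female.

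**Figure D2:**
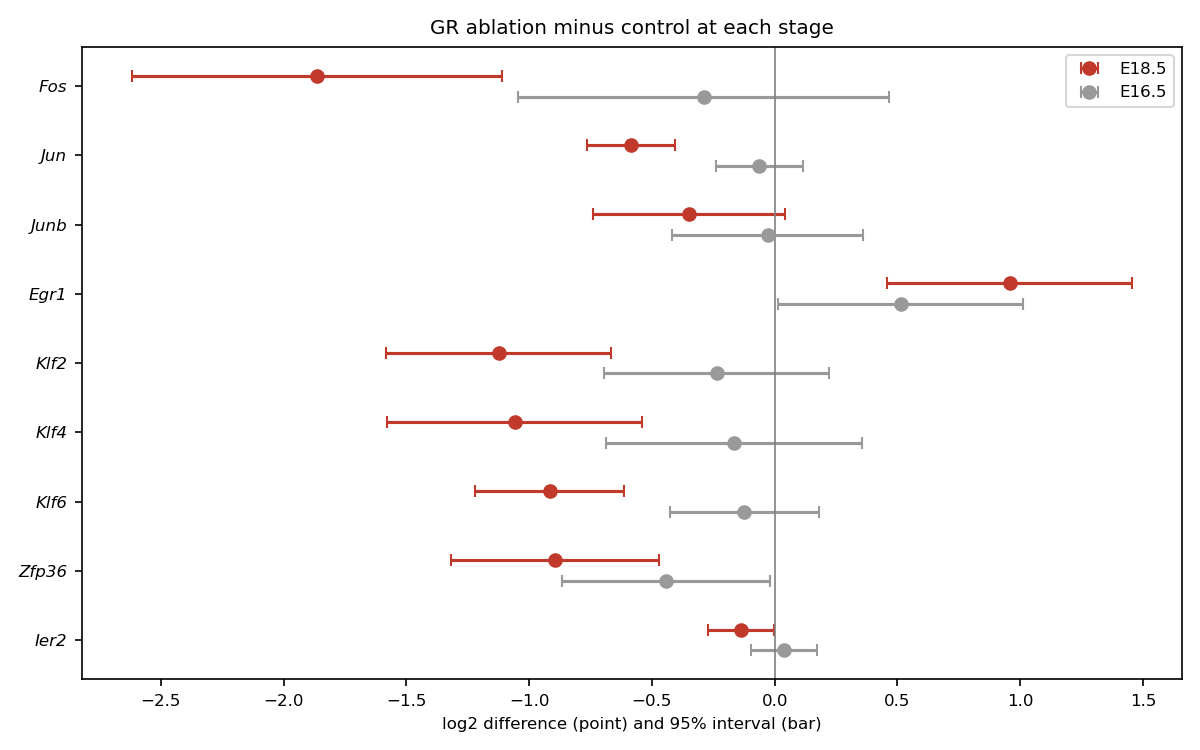
Log2 difference of GR ablation minus control lungs (x axis) for the 9 tested genes (y axis) at E18.5 and at E16.5. Points are limma estimates over 5 animals per group and bars their 95% intervals. At E18.5 the intervals of Fos, Jun, Klf2, Klf4, Klf6, Zfp36 and Ier2 lie below 0 and that of Egr1 above it. At E16.5 only the intervals of Zfp36 and Egr1 exclude 0, narrowly.

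Whether the effect of GR ablation differed between the stages was tested as the interaction, where 8.40% of all genes passed, 4.78% in the negative direction. Of the 9 genes 2 passed by limma, Jun with -0.52 (SE 0.12, adjusted p = 0.0128) and Klf6 with -0.79 (SE 0.20, adjusted p = 0.0224), both more negative at E18.5. Neither passed with embryo sex as a covariate (-0.41 with adjusted p = 0.0866, and -0.78 with adjusted p = 0.0767). Sex and genotype largely coincide at E16.5, so that fit can hardly tell them apart there. Fos had the largest estimate, -1.58 (SE 0.51, 95% interval -2.64 to -0.51), and did not pass (limma adjusted p = 0.0608). Without E18.5 control replicate 3 it was -1.96 and passed (limma adjusted p = 0.00219). Klf2 (-0.89, 95% interval -1.53 to -0.24) and Klf4 (-0.89, 95% interval -1.63 to -0.16) did not pass (limma adjusted p = 0.0795 and 0.119). Both passed without E16.5 control replicate 5, at -1.03 and -1.07. That animal was the only female among the E16.5 controls and had their highest stage position. Without it sex and genotype coincide fully at E16.5 and cannot be told apart there. For Junb (-0.32), Egr1 (0.44), Zfp36 (-0.45) and Ier2 (-0.18) the 95% intervals included 0. The dimmer Klf4 probe set passed among the probe sets (-1.47, SE 0.36, adjusted p = 0.0201, where 6.62% of probe sets passed), whereas the second Jun probe set did not (-0.43, adjusted p = 0.0882). Klf6 passed on all 3 of its probe sets.

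In GR ablation lungs 8 of the 9 genes were higher at E18.5 than at E16.5 by limma, where 56.2% of all genes changed, 28.7% higher. The rises were 1.68 for Zfp36 (SE 0.20), 1.30 for Klf4 (SE 0.25), 1.13 for Fos (SE 0.36), 1.10 for Junb (SE 0.19), 1.06 for Klf2 (SE 0.22), 0.70 for Klf6 (SE 0.14), 0.27 for Jun (SE 0.08) and 0.21 for Ier2 (SE 0.06). The difference of these rises from those in controls is the interaction above, which passed for Jun and Klf6 among the 9 genes. Egr1 was at -0.40 (SE 0.24, 95% interval -0.90 to 0.10, limma adjusted p = 0.162). On the brightest probe sets the groups did not overlap for 5 of the 9 genes (Junb, Klf2, Klf4, Klf6 and Zfp36), beside 42.4% of all genes. For Junb this was in part required by the filter, which it met through E18.5 arrays alone. The groups overlapped on the dimmer Klf4 probe set and on the other Klf6 probe sets. They did not overlap on the second Jun probe set. For Fos, mutant replicates 1 and 4 at E18.5 stayed below the highest E16.5 mutant.

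In controls all 9 genes changed between the stages by limma, 8 higher at E18.5 and Egr1 lower, where 70.9% of all genes changed, 35.3% higher and 35.5% lower. Fos rose by 2.70 (SE 0.36), a 6.51-fold higher level at E18.5, and its E16.5 values sat at the dim limit. Klf4 rose by 2.20 (SE 0.25), Zfp36 by 2.13 (SE 0.20), Klf2 by 1.94 (SE 0.22), Klf6 by 1.49 (SE 0.14) and Junb by 1.42 (SE 0.19), with limma adjusted p-values of 3.06e-08 (Zfp36) to 1.74e-06 (Junb). Jun rose by 0.79 (SE 0.08) and Ier2 by 0.39 (SE 0.06). The 5 E18.5 controls lay above the 5 E16.5 controls in each of these 8 genes, as did 25.9% of all genes. For Junb this was in part required by the filter, which it met through E18.5 arrays alone. Egr1 fell by 0.84 on the log2 scale (SE 0.24, limma adjusted p = 0.00393), and E18.5 control replicate 3 lay within the E16.5 range. With the erythroid marker mean as a covariate the Egr1 difference in controls was -0.50 and did not pass (limma adjusted p = 0.162).

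**Figure D3:**
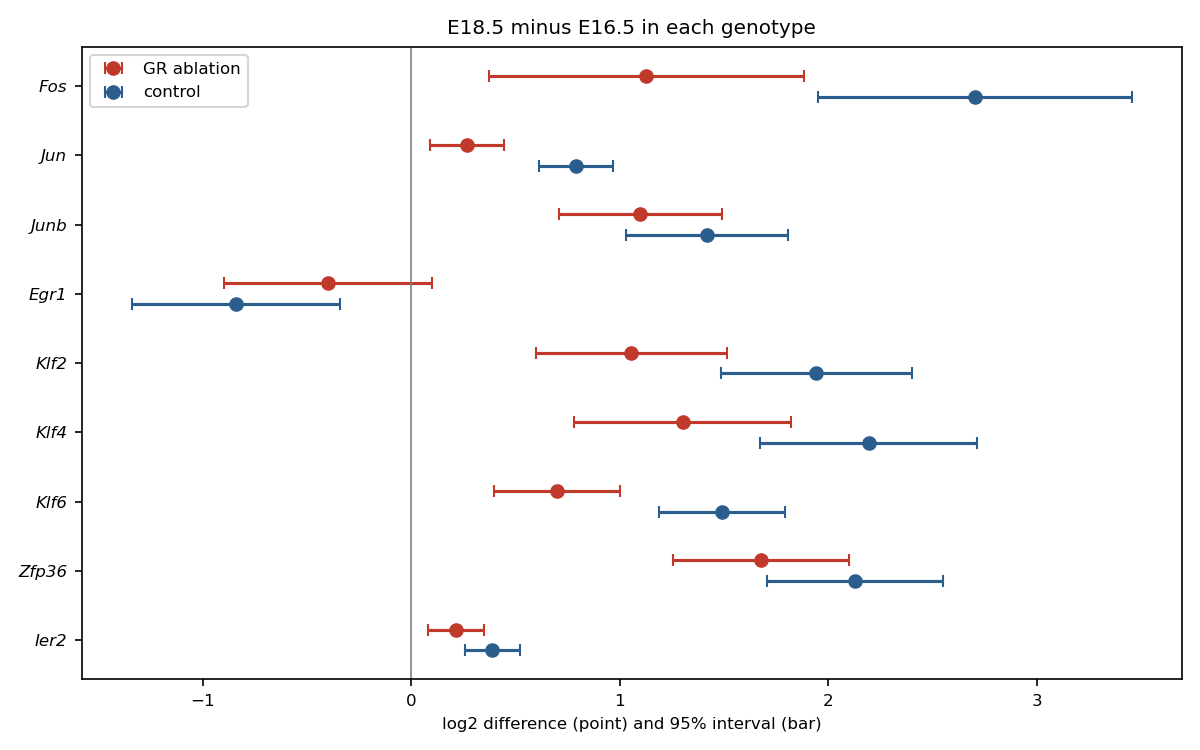
Log2 difference of E18.5 minus E16.5 (x axis) for the 9 tested genes (y axis) in GR ablation and in control lungs, with limma estimates (points) and 95% intervals (bars), 5 animals per group. Egr1 lies below 0 and the other 8 genes above it in both genotypes, and the interval of Egr1 in GR ablation lungs includes 0.

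In the order of the group means, E18.5 controls were highest for Fos, Jun, Junb, Klf2, Klf4, Klf6, Zfp36 and Ier2, followed by E18.5 GR ablation lungs. The E18.5 groups overlapped for Fos, Junb and Ier2. The E16.5 groups were lowest, and in all 9 genes they overlapped, whereas 1.00% of all genes did not overlap there. Egr1 had the reverse order at its ends, 7.69 ± 0.25 in E18.5 GR ablation lungs, 6.73 ± 0.59 in E18.5 controls, 8.08 ± 0.34 in E16.5 GR ablation lungs and 7.57 ± 0.34 in E16.5 controls (SD, n = 5 each).

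Within groups, several genes deviated together in the same animals. In E18.5 GR ablation lungs, replicate 3 was the highest or second highest animal in 8 of the 9 genes and replicate 5 in 7, and these animals also had the highest stage positions of that group (0.765 and 0.769, against 0.453 to 0.525). In E18.5 controls, replicate 3 was the lowest in 6 genes (Fos, Jun, Junb, Klf4, Zfp36 and Ier2) and the highest in Egr1 and Klf2. In E16.5 controls, replicate 5 was the highest in 8 genes, all but Egr1. Klf2 thus departed from the brighter probe set of the Kruppel-like gene Klf4 in E18.5 control replicate 3. Klf2 was at 10.55 there and Klf4 at 10.76, each far from its other 4 controls (9.55 to 9.89, and 11.25 to 11.44). On the dimmer Klf4 probe set this animal read 8.85, close to the other controls (8.88 to 9.11).

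**Figure D4:**
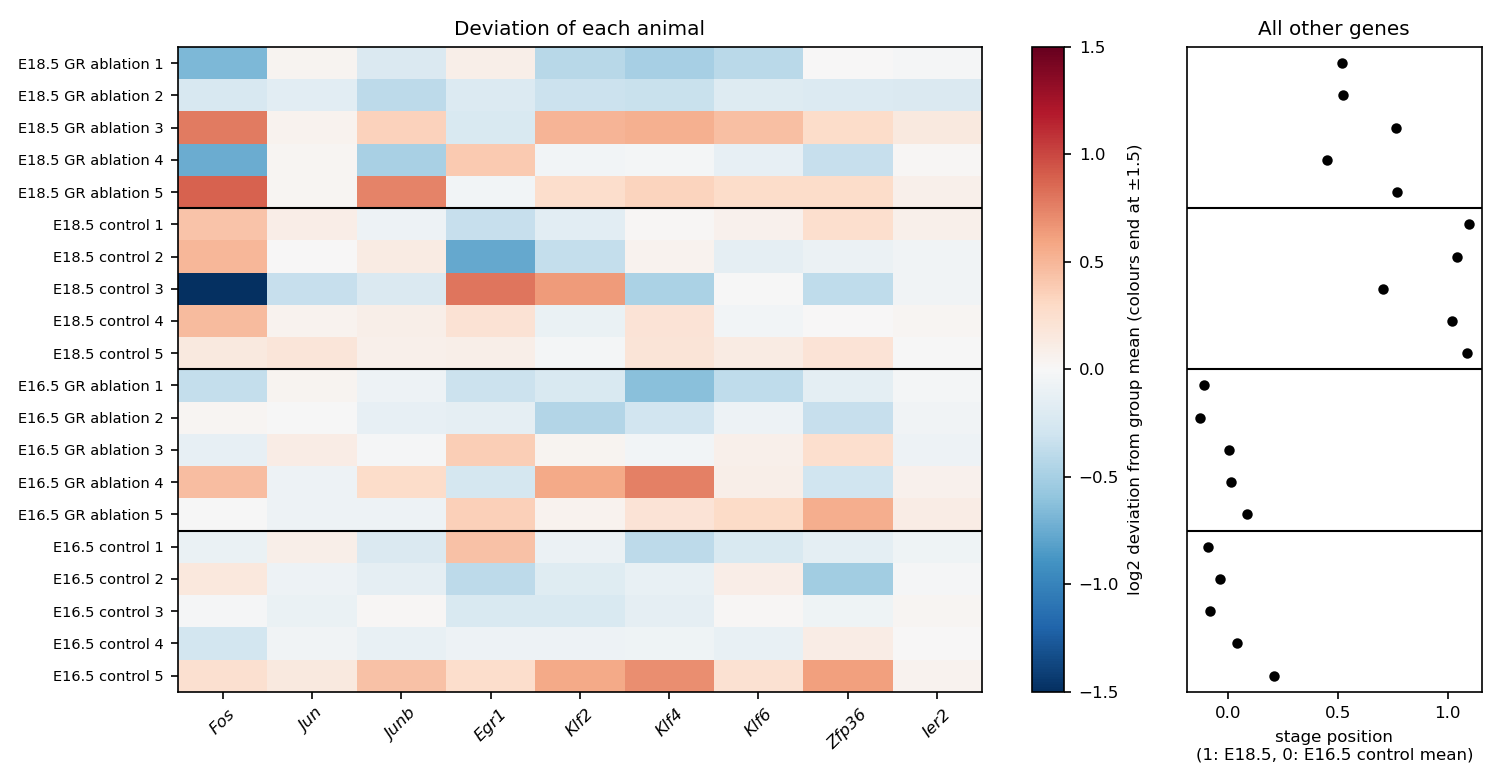
Left, the deviation of each animal (rows) from its group mean in log2 units (colour) for the 9 tested genes (columns). Right, the stage position of each animal from all other tested genes (x axis, 1 at the E18.5 and 0 at the E16.5 control mean). E18.5 control 3, at 0.704, is low for 6 genes and high for Egr1 and Klf2, and E18.5 GR ablation animals 3 and 5 are high for most genes.

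The genes whose deviations from the group means were most like those of each gene over the 20 arrays were not among the 9 (0 of 18 named). For Fos they were Ccn2, a matrix-associated growth factor gene and early target of serum response factor (Pearson r = 0.96), and Arhgef3 (0.94). Without the 2 arrays that deviated most for Fos these values were 0.94 and 0.88. For Zfp36 they were Myo1d and Scarb2 (0.94 each), for Klf6 Lrrc26 (0.92) and Idh1 (0.89), for Klf4 Zdhhc3 and Stap2 (0.90 each), for Junb Clec3b (0.87) and Sftpd (0.86), and for Jun Slc22a23 (0.88) and Pag1 (0.86). For Klf2 they were Stfa3 (0.85) and Rgs5 (0.83), for Egr1 Myo9b (0.83) and Edc4 (0.78), and for Ier2 Osbpl5 and Rap1b (0.79 each). For Ier2 these fell to 0.52 and 0.53 without its 2 most deviant arrays. These values describe the arrays, which share their stage positions, and were picked as the highest of 8068 genes.

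Related early genes were counted from lists. At E18.5, 5 of 7 tested AP-1 and small bZIP genes were lower and 0 higher (median -0.55). Maff, a small MAF factor, fell by 2.62 on the log2 scale (SE 0.32), Jdp2, a repressor of AP-1, fell by 1.10 (SE 0.11) and Mafk fell by 0.95 (SE 0.17). Of 7 tested other Kruppel-like genes 5 were lower and 0 higher (median -0.71). The metabolic regulator Klf15 fell by 2.41 (SE 0.38), Klf9, a direct target of the glucocorticoid receptor, fell by 1.92 (SE 0.18), and Klf13 fell by 1.19 (SE 0.14). Of 21 tested other early-response genes 9 were lower and 0 higher (median -0.24), among them Gadd45g (-0.93, SE 0.24), Gadd45b (-0.83, SE 0.15) and the matricellular gene Ccn1 (-0.88, SE 0.18). In the EGR and NR4A list only 4 of 8 genes could be tested, since Egr2, Egr3, Egr4 and Nr4a3 were too dim, and 1 was lower, the EGR corepressor Nab1 (-0.15, SE 0.05).

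The upstream MAP kinases and the SRF, CREB and MEF2 factors showed no common direction. Of 14 tested MAP kinase genes 4 were lower and 2 higher (median -0.05), with Map2k6 (1.17, SE 0.17) and Mapk8 (0.65, SE 0.16) higher and Map3k3 (-0.27, SE 0.07) lower. Of 11 tested SRF, CREB and MEF2 factors 1 was lower, Mef2a (-0.38, SE 0.08), and 1 higher, Mef2c (0.62, SE 0.10). Of 7 tested feedback inhibitors of MAP kinases 3 were lower and 0 higher, namely Dusp1 (-1.02, SE 0.12), Spry1 (-0.40, SE 0.09) and Dusp16 (-0.38, SE 0.09). Of 12 tested heat shock and unfolded protein genes 2 were lower and 2 higher (median 0.04), with Hspb1 at -1.18 (SE 0.14), Hspe1 at 0.42 (SE 0.08) and Hspd1 at 0.35 (SE 0.09). Over all genes 15.9% were lower and 18.6% higher, and the median was 0.03.

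Of 15 tested direct glucocorticoid-induced genes 11 were lower and 0 higher at E18.5 (median -1.34), such as Per1 (-2.50, SE 0.27), which was above 4 on all 20 arrays. Zbtb16 (-3.27, SE 0.44) and Pdk4 (-3.17, SE 0.20) were dim in 5 of 5 E18.5 GR ablation lungs and met the filter through controls alone, so that they had to differ between the genotypes. The other 9 lower genes of the list were above 4 in at least 1 E18.5 GR ablation lung. This list shares Klf9, Dusp1, Sgk1 and Nfkbia with the lists above. Downstream of KLF2 in endothelium, 2 of 6 tested genes were lower, the sphingosine phosphate receptor S1pr1 (-1.15, SE 0.16) and thrombomodulin, Thbd (-0.37, SE 0.09), and 1 was higher, Ptgds (0.84, SE 0.16). Of the messenger RNAs that tristetraprolin destabilises, 3 of 10 could be tested. Csf2 (-1.48, SE 0.29) and Vegfa (-0.98, SE 0.20) were lower, Csf2 being above 4 in 3 of 5 GR ablation lungs and 5 of 5 controls at E18.5. The chemokine gene Ccl2 was called higher (0.96, SE 0.31), but it was dim on all E18.5 arrays and met the filter through E16.5. At E16.5, 0 genes of these lists passed except 2 that were lower in the glucocorticoid list, Per1 (-1.53, SE 0.27) and Hif3a (-1.35, SE 0.23), where the median was -0.34. Hif3a is named after its values were seen. Over all genes 15.9% were lower and 18.6% higher at E18.5, and the lists hold 3 to 21 tested genes each.

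**Figure D5:**
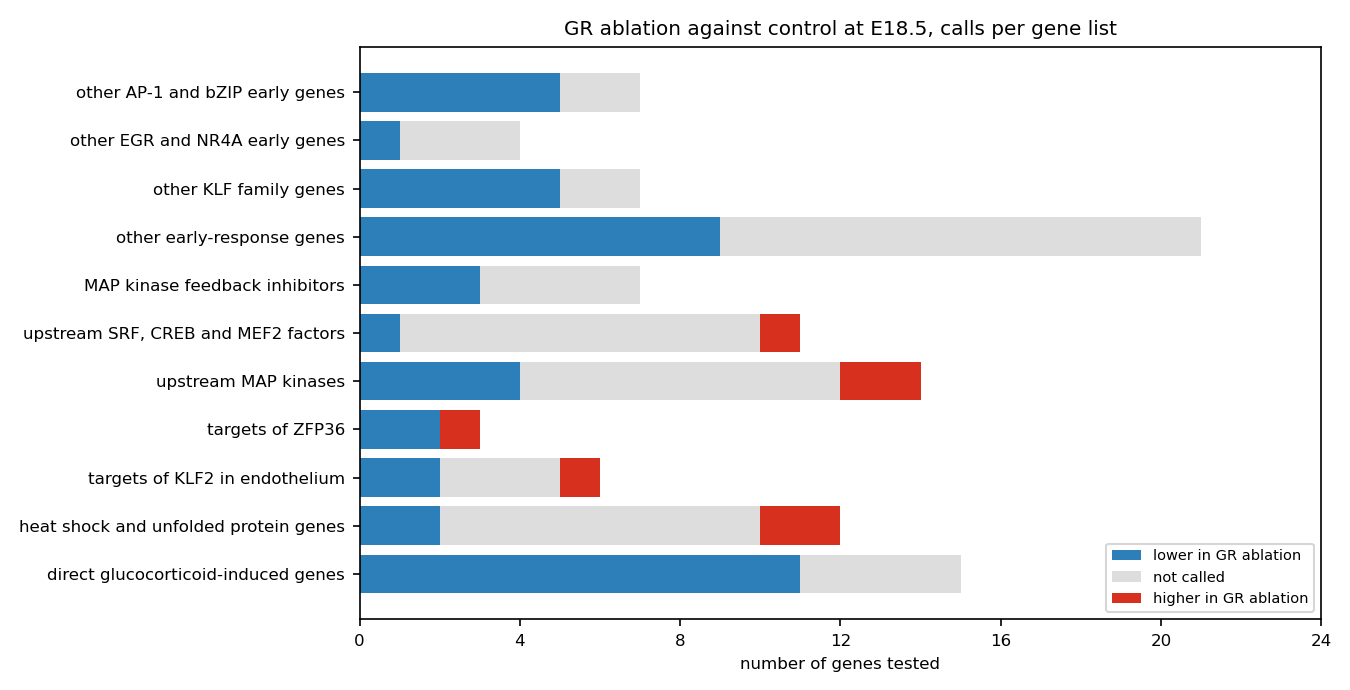
Number of tested genes (x axis) in each list of related genes (y axis) that were lower, not called or higher in GR ablation against control lungs at E18.5 (limma adjusted p under 0.05 over 8068 genes). The 9 genes described here are left out. Lower genes make up 5 of 7 in the AP-1 and in the Kruppel-like lists and 11 of 15 in the glucocorticoid list, while the upstream kinase list holds both directions.

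Over all genes 28.7% were higher at E18.5 than at E16.5 in GR ablation lungs and 35.3% in controls. Of the 8068 genes 2225 were lower in GR ablation lungs and 2867 in controls. Between the stages, 7 of 7 other Kruppel-like genes were higher at E18.5 in GR ablation lungs and 7 of 7 in controls, with medians of 0.57 and 1.11. Of the other early-response genes 15 of 21 were higher in GR ablation lungs and 16 of 21 in controls, with medians of 0.62 and 0.75. Of the AP-1 and bZIP genes 3 of 7 were higher in GR ablation lungs and 5 of 7 in controls, with medians of 0.32 and 0.89. Batf, 1 of these 7, met the filter through E18.5 arrays alone, so its change between the stages was in part required by the filter. Blood endothelial markers were higher at E18.5 in 13 of 13 genes in both genotypes, with medians of 0.59 in GR ablation lungs and 0.91 in controls. Lung epithelial markers were higher in 12 of 13 in both genotypes (medians 2.22 and 2.56 in the same order), with 1 lower in controls. Among them Aqp5 also met the filter through E18.5 arrays alone. Myeloid markers were higher in 10 of 11 and 11 of 11 (1.19 and 1.68), and mesothelial markers in 3 of 3 in both (0.91 and 1.74). Mitosis genes were lower in 9 of 9 in both (-1.15 and -2.42). Erythroid markers were split, with 1 of 4 tested higher and 2 lower in GR ablation lungs, and 2 higher and 2 lower in controls. Hbb-y changed by -5.41 in GR ablation lungs and -3.45 in controls (SE 0.66 each), and Alas2 by 0.53 and 1.44 (SE 0.19 each). The erythroid mean thus joins opposite changes. The mean of the 7 erythroid markers on the array did not overlap between the stages in GR ablation lungs. It was 4.97 to 5.51 at E18.5 and 6.34 to 7.08 at E16.5. The erythroid covariate was the mean of the 4 tested markers alone, and its range is not given here. With that covariate 1 of the 9 genes passed in GR ablation lungs, and with the endothelial mean 0 of the 9 in either genotype. Stage and the endothelial level cannot be told apart in that fit, and the erythroid fit may have the same limit. The Gapdh 3′ minus 5′ difference was -0.201 to -0.118 at E18.5 and -0.374 to -0.214 at E16.5 in GR ablation lungs, without overlap. In controls it was -0.207 to -0.0754 at E18.5 and -0.358 to -0.162 at E16.5, and overlapped. The same difference for actin overlapped between the stages in both genotypes. The part of RNA integrity in the stage changes was not tested.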

How the data were processed

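The authors deposited 1 log2 value per probe set and array, made with GCRMA (background correction, normalization between arrays and summary of the probes), per the submitters' processing notes. The sources used here do not give its version. The values were not transformed again. Of 22690 probe sets, 20380 name 1 gene, 691 several, 1555 none and 64 are array controls, by GEO's platform annotation. For each gene the single-gene probe set that was brightest on average was taken, and genes with a log2 value above 4 in at least 5 arrays were tested (8068). Group means of all 20 arrays were fitted with limma 3.58.1 (lmFit, eBayes) in R 4.3.3, two-sided, with Benjamini-Hochberg adjustment over the genes tested and no p-value adjusted over a list. Errors of differences are limma standard errors, and those of means are standard deviations over 5 animals. All 14 probe sets of the 10 genes but that of Fosb were also tested among 12517 single-gene probe sets that met the same filter. The members, lists and tests were chosen with earlier results of these data known.

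Lists were matched by symbol or RefSeq synonym. Named genes are the members, at most 3 called genes with the largest change at E18.5 per list, the 2 genes most like each member, and Nr3c1. Others are named where they were dim or met the filter through some groups alone. The endothelial examples are 2 of the 3 that this rule gives. Precision is limited by 5 arrays per group. The fit was tested on simulated data first. Alternatives covered the arrays in the fit, filters, normalization, probe sets, the variance model, weights, the replicate number, sex, marker covariates, thresholds, the exact permutation test and leaving out each array. Python 3.11.15 and matplotlib 3.10.9 drew the figures.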

Additional observations from a re-analysis of the deposited data

Results flagged for a closer look

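In 7 of the 56 combinations of probe set and group, 1 of the 5 animals lay far from the rest by Dixon's test at its 95% critical value of 0.71. Chance flags about 1 in 20. E18.5 control replicate 3 accounts for 4 of the 7, all at the low end. Fos was at 5.50 (nearest other control 7.19) and the brighter Klf4 probe set at 10.76 (nearest 11.25). The dimmer Jun probe set was at 9.85 (nearest 10.28) and Fosb at 1.93 (nearest 1.98), the last below the dim limit. The dimmer Klf4 probe set was not flagged for this replicate. This animal stood at 0.704 in stage position, against 1.02 to 1.09 in the other E18.5 controls, and its part in these values was not tested. E18.5 GR ablation replicate 2 was low for Jun (10.03, nearest 10.22). E16.5 GR ablation replicate 4 was high for Junb (3.13, nearest 2.83, both dim), and E16.5 control replicate 5 was high for Klf2 (8.54, nearest 7.90).

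The effect of GR ablation differed between E18.5 and E16.5 for Jun (-0.52) and Klf6 (-0.79) by the interaction in limma. Each lost its call with sex as a covariate (adjusted p = 0.0866 for Jun and 0.0767 for Klf6). Sex and genotype largely coincide at E16.5, so that fit can hardly tell them apart there.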

How the results depend on the processing

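At E18.5 the count of 7 genes held, within 1.5 times, under every setting run except the blood endothelial covariate, which gave 0 of the 9 and 242 of all genes. All genes called at E18.5 were 1645 at an adjusted p under 0.01 and 1060 with a change of at least 1.5-fold, and 2197 to 3355 without single arrays (2784 as reported). At E16.5 0 of the 9 passed in each setting run, while all genes called were 9 with the 2 groups alone, 43 with array weights, 8 with sex as a covariate, 11 at an adjusted p under 0.01 and 13 to 22 without single arrays (20 as reported). Between the stages in GR ablation lungs the erythroid covariate gave 1 of the 9 and 1289 of all genes, the endothelial covariate 0 and 7, and the 1.5-fold limit 2057 genes. In controls Egr1 did not pass with the erythroid covariate (-0.50). There the endothelial covariate gave 0 and 4, all single-gene probe sets 8586 calls through the longer table, and the 1.5-fold limit 3171 genes. The interaction depended most on the setting. Of the 9, it called 5 with array weights, 4 with the erythroid covariate, 0 with sex, 0 with the endothelial covariate, 0 at an adjusted p under 0.01, 1 with the 1.5-fold limit and 2 to 4 without single arrays (4 without E16.5 control replicate 5 or E18.5 GR ablation replicate 3). Of all genes it called 2244 with array weights, 1899 with the erythroid covariate, 403 with sex, 100 with the endothelial covariate, 166 at an adjusted p under 0.01 and 393 to 1445 without single arrays. With the endothelial covariate the sign turned for Junb (0.0034) and Zfp36 (0.14) at E18.5, Jun (0.0068) and Junb (0.0531) at E16.5, Zfp36 between the stages in controls (-0.24), Jun between the stages in GR ablation lungs (-0.19) and the interaction of Zfp36 (0.34). With the erythroid covariate it turned between the stages in GR ablation lungs for Egr1 (0.32), Fos (-0.79) and Jun (-0.12). The E16.5 difference of Junb, near 0, was 0.0314 with array weights and 0.0591 with sex. Without single arrays it was -0.099 (without E16.5 GR ablation replicate 4) to 0.0804 (without E16.5 control replicate 5), and that of Klf4 was -0.356 to 0.0076 without the same arrays. The cause of these moves was not tested. Same-numbered animals were not treated as pairs, since correlations of their deviations from group means ran from -0.429 to 0.597 and were not all above 0.1 in any comparison. With the replicate number as a block, 7 of the 9 passed at E18.5, 0 at E16.5, 8 and 9 between the stages in GR ablation lungs and controls, and 3 in the interaction, where Klf2 was added (adjusted p = 0.0408). All genes called under the block were 2943, 17, 4639, 5791 and 733 in the same order. Dim signal limits Fosb and Junb, and Fos at E16.5.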
